A study of Mus musculus with 32 samples.

Results

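The Hedgehog genes described here are Gli1, Gli2, Gli3, Ptch1, Smo and Sufu, taken as the RNA partner of RNA–chromatin interactions in 15 RADICL-seq libraries of 2 mouse cell lines. Interactions were collected wherever the Ensembl identifier of the RNA belonged to 1 of these 6 genes, out of 17784 genes listed. They numbered 42718 of 25231081 interactions (0.169%). Gli2 gave 32306 of them, Ptch1 4111, Gli3 2866, Sufu 2664, Smo 412 and Gli1 359. The large gap in Gli2 capture between the cell lines under the standard protocol was known when the set was drawn up, and is taken here as what chose it. The values of all 6 genes in that contrast are therefore given as a description without a test.

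RADICL-seq fixes cells, cuts the DNA inside the nuclei with DNase I, treats the RNA with RNase H and joins RNA ends to nearby DNA ends through a bridge adapter. Each sequenced molecule then carries a short RNA tag and a short DNA tag. The R08 line of mouse embryonic stem cells (mESC), grown without feeders, was studied in 4 groups. These were fixation with 1% formaldehyde (1FA, 3 libraries), fixation with 2% formaldehyde (2FA, 3 libraries), actinomycin D at 5 µg/ml for 4 h before fixation with 1% formaldehyde (ActD4, 2 libraries) and the non-protein-mediated protocol (NPM, 2 libraries). Actinomycin D blocks transcription. NPM libraries were also made from cells fixed with 1% formaldehyde, but the proteins were digested and the crosslinks reversed before the RNA was ligated. Oli-neu, a line of mouse oligodendrocyte progenitor cells (mOPC) immortalised with the t-neu oncogene, was studied as 1FA (3 libraries) and NPM (2 libraries). No gene was deleted or introduced for the comparison, each line stands for 1 origin of its cell type, and replicates were cell batches of different passage.

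Hedgehog signalling controls patterning in the embryo and the growth of progenitor cells, among them those of the oligodendrocyte lineage. The receptor Ptch1 holds the membrane protein Smo inactive until a Hedgehog ligand binds, and active Smo then releases the Gli transcription factors from their inhibitor Sufu. Gli2 is the main activator and Gli3 the main repressor of the family, whereas Gli1 and Ptch1 are themselves targets of the pathway. The interactions tell where the RNA of these genes lay on chromatin and say nothing of the proteins.

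The deposited lists held 1998951 to 2832717 significant interactions per library in the 1FA and 2FA groups, 1190366 to 1272653 in mOPC NPM, 434610 to 608994 in mESC NPM and 251802 to 418781 in ActD4. Since only pairs of a gene and a 25-kb bin past the authors' threshold are listed, these totals are not sequencing depths, and a gene listed at 0 may still have been captured. Levels are given in CPM, here the interactions of a gene per 1000000 listed interactions of its library. All 12 stem cell markers were listed in mESC 1FA, at a sum of 3563 to 3792 CPM, against 4 of 12 at 52.5 to 65.5 in mOPC 1FA, where Pou5f1 and Nanog were listed at 0. Of the 12 oligodendrocyte progenitor markers, 8 were listed in mOPC 1FA at 8103 to 8959 CPM, with Sox8, Nkx2-2 and Zfp488 among those at 0. In mESC 1FA 5 were listed, at 10.1 to 39.3, with Olig1 and Olig2 at 0. The summed level of 6 neuronal markers was 1253 to 1475 in mOPC 1FA, from 2 listed genes, and 334 to 390 in mESC 1FA, from 5. That of 6 astrocyte markers was 70.2 to 96.1, from 4, and 91.8 to 136, from 2 (Gfap and Aqp4 at 0 in both). That of 5 mature oligodendrocyte markers was 71.2 to 102, from 2, and at most 22.1, from 4. Of 6 fibroblast markers, none was listed in mESC 1FA and 1 in mOPC 1FA. The part of these marker differences in the results for the Hedgehog genes was not tested.

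Gli2 (ENSMUSG00000048402; mm10 chr1:118834132-119053619, minus strand, 219488 bp) gave the most interactions of the 6 genes and was also the highest per kb of gene in every mESC 1FA library. Its tags lay almost entirely in introns, at 95.7% in mESC 1FA. The single stretch with most tags was nevertheless in a coding exon 51.5 kb from the 5′ end of the gene (chr1:119002108-119002134). That stretch held 240 tags within 13 bases of its centre (0.743% of all Gli2 tags), 113 from mESC 1FA, 78 from mESC 2FA and 49 from ActD4, which were joined to DNA in 85 bins. The next was an intronic stretch 55.5 kb from the 5′ end (chr1:118998117-118998143), with 37, 23 and 9 tags in the same groups and 1 in mESC NPM. The most tagged stretch of Gli3 was intronic (chr13:15615592-15615618, plus strand) and held 15 tags from mESC 1FA, 11 from mESC 2FA, 16 from mOPC 1FA and 4 from mOPC NPM. That of Ptch1 was intronic as well (chr13:63554503-63554529, minus strand), with 9, 5 and 3 tags from mESC 1FA, mESC 2FA and mOPC 1FA. These 4 sequences, read from the mm10 genome on the strand of the RNA, 5′ to 3′, are shown because each was among the most tagged stretches of its gene, although most tags lay elsewhere. They were picked by tag number, and no motif is marked in them.
Gli2 coding stretch: agccaagagtggtctcttggaggacag
Gli2 intronic stretch: catcctcctctgccccaaggctggcag
Gli3 intronic stretch: gtcacagatgagctaagccacgtgtgg
Ptch1 intronic stretch: catgcacatgcttgcacacactagcag

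Gli2 RNA was listed at 2121, 1889 and 1833 CPM in the mESC 1FA libraries (1948 ± 153, SD, n = 3) and at 0 in all 3 mOPC 1FA libraries. The 3 stem cell libraries thus rested on 5659, 4613 and 5191 interactions and the mOPC 1FA libraries on none, so no fold change is given. Per kb of gene, Gli2 ranked 136th of 12434 protein-coding genes in mESC 1FA. In mESC 2FA it stood at 1870, 2032 and 1928 CPM, inside or beside the range of mESC 1FA. In ActD4 the 2 libraries held 3785 and 3761 CPM, above every other group, and Gli2 ranked 48th of 8047 protein-coding genes per kb there. In mESC NPM they held 920 and 1056, below every mESC 1FA library. The mOPC NPM libraries did list Gli2, at 44.0 and 26.0 CPM, from 56 and 31 interactions in 6 bins. In these bulk libraries fewer cells with Gli2 RNA and less RNA per cell cannot be told apart.

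Gli3 (chr13:15463235-15730026, plus strand, 266792 bp) was captured to a similar level in both lines. It stood at 96.3, 94.2 and 111 CPM in mESC 1FA and at 105, 110 and 125 in mOPC 1FA, and these ranges overlapped. The other groups held 107, 121 and 139 (mESC 2FA), 59.7 and 83.4 (ActD4), 129 and 100.2 (mESC NPM) and 145 and 142 (mOPC NPM). Both ActD4 libraries were thus below all others and both mOPC NPM libraries above all others. In levels of this kind the median of the genes tested was 0.95 higher in mOPC NPM than in mOPC 1FA on the log2 scale. The ranks across protocols are therefore no direction for Gli3. Gli1 (ENSMUSG00000025407; chr10:127329882-127341974, minus strand, 12093 bp) was, like Gli2, listed in mESC and not in mOPC under 1FA, but was higher in mESC NPM than in mESC 1FA. It was listed at 25.5, 22.1 and 15.2 CPM in mESC 1FA, at 36.8 and 44.3 in mESC NPM, at 0 in the 3 mOPC 1FA libraries and at 5.50 and 4.20 in mOPC NPM, where it rested on 7 and 5 interactions. Of its tags, 71.6% fell where Arhgap9 or Gm47200 overlap the gene. What part those genes have in its level was not tested.

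The receptor Ptch1 (chr13:63508328-63573598, minus strand, 65271 bp) stood at 230, 159 and 160 CPM in mESC 1FA and at 112, 108 and 105 in mOPC 1FA, with no overlap between the lines. The NPM libraries held 170 and 200 in mESC and 101 and 102 in mOPC, and the ActD4 libraries 241 and 262. Smo (chr6:29735503-29761365, plus strand, 25863 bp), which transduces the signal, was the reverse. Its level was 11.6, 8.19 and 9.53 CPM in mESC 1FA, 20.4, 17.6 and 20.5 in mOPC 1FA, 20.7 and 16.4 in mESC NPM and 40.9 and 42.8 in mOPC NPM. It was therefore highest in both libraries of mOPC NPM, where the median of the genes tested was also 0.95 above mOPC 1FA on the log2 scale. Sufu (chr19:46396896-46488804, plus strand, 91909 bp), the inhibitor of the Gli proteins, stood at 112, 134 and 114 in mESC 1FA and at 88.7, 89.2 and 87.5 in mOPC 1FA. In mESC NPM it was at 62.1 and 80.5, lower than in any other mESC library, and in mOPC NPM at 72.3 and 94.9, on either side of the mOPC 1FA values.

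**Figure D1:**
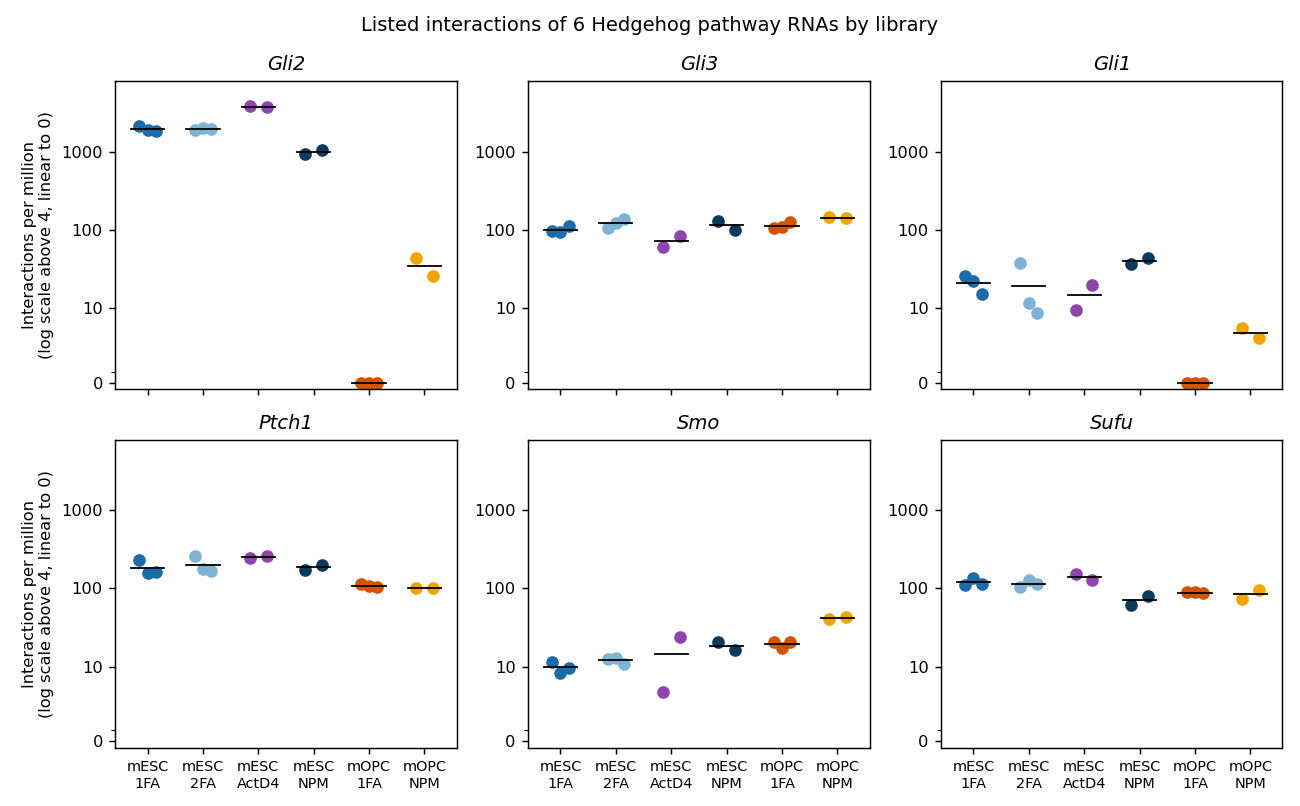
Level of each Hedgehog gene's RNA in CPM, the interactions per 1000000 listed interactions of the library (vertical axis, linear below 4 and logarithmic above) in the 6 groups, with a point per library and a bar at the group mean. Gli2 stands at 1833 to 2121 in mESC 1FA, at 0 in mOPC 1FA and at 26.0 to 44.0 in mOPC NPM, while Gli3 lies between 59.7 and 145 in every library.

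Levels of different genes are set side by side per kilobase of gene. In mESC 1FA the order in CPM per kb of gene was Gli2 (8.35 to 9.66), Ptch1 (2.43 to 3.53), Gli1 (1.26 to 2.11), Sufu (1.22 to 1.46), Smo (0.317 to 0.449) and Gli3 (0.353 to 0.417). Gli1 overlapped Sufu and Smo overlapped Gli3, and the other neighbours did not overlap. In mOPC 1FA the order of the listed genes was Ptch1 (1.61 to 1.72), Sufu (0.953 to 0.970), Smo (0.679 to 0.793) and Gli3 (0.393 to 0.467), with no overlap. In mOPC NPM Smo reached 1.58 to 1.66 and Gli2 0.119 to 0.200.

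Fitted differences in capture were tested over all genes with limma on log2 CPM scaled by TMM factors, which set aside the genes that move most. Scaling by the listed totals instead moved the median of all genes by 0.52 (mESC NPM against 1FA), 0.78 (mOPC NPM against 1FA), -0.37 (NPM between the lines), -0.50 (1FA between the lines) and 0.11 (ActD4 against 1FA) on the log2 scale. Calls went from 2199 higher and 2794 lower to 4203 and 1326 in mESC NPM, from 3011 and 2769 to 6157 and 757 in mOPC NPM, from 3351 and 2307 to 2680 and 3242 between the NPM lines and from 3695 and 4728 to 2764 and 5965 between the 1FA lines. Fitted differences are therefore relative to the bulk of the genes and need not match the CPM levels above. Replicates share a list of pairs called on the pooled replicates, so the spread between them is narrower than between libraries called on their own. In capture, Gli2 was left out of the test wherever 1FA libraries entered, since its level in them chose the set. Its reach, described further on, was tested. All comparisons against 1FA of a line share the same 3 libraries.

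In mESC NPM against mESC 1FA, Sufu fell by 1.28 on the log2 scale (SE 0.18, adjusted p = 0.000261). Of Gli1, Gli3, Ptch1 and Sufu it alone passed, against 49.5% of 10096 genes. It was lower in 2 of 2 NPM libraries. Gli1 (0.45, adjusted p = 0.228), Gli3 (-0.35, 0.104) and Ptch1 (-0.49, 0.0599) did not pass. With scaling by totals Gli1 (0.97, adjusted p = 0.0174) passed as well, and the values of Gli3 and Ptch1 turned to 0.18 and 0.04. Smo, at 9 and 10 NPM interactions, met the count minimum only through mESC 1FA, so no test is given for it. Its fitted values were 0.39, and 0.91 with totals.

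In mOPC NPM against mOPC 1FA, 3 of the 4 members tested passed, against 55.5% of 10419 genes, and Gli1 was below the count minimum. Ptch1 (-0.89, SE 0.11, adjusted p = 0.000628) and Sufu (-0.89, SE 0.16, adjusted p = 0.00346) were lower relative to the bulk of the genes, but with scaling by totals they were at -0.10 and -0.09 and did not pass. Gli3 was called lower (-0.45, adjusted p = 0.0125) with TMM factors and called higher with totals (0.35, adjusted p = 0.0319), so no direction is given for it, and its TMM call was lost in 3 of 5 fits that left out a library. Smo, which did not pass (0.31, adjusted p = 0.237), passed with totals (1.096, adjusted p = 0.00439).

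Between the lines under NPM, Gli2 was 4.46 lower in mOPC than in mESC on the log2 scale (SE 0.26). These are other libraries than those of the 1FA contrast, but the genes were chosen with results of all groups known. The value of Gli2 is therefore a description without a test and is not independent support. The 2 mOPC NPM libraries held 44.0 and 26.0 CPM against 920 and 1056. Gli1 held 5.50 and 4.20 CPM against 36.8 and 44.3, and Smo 40.9 and 42.8 against 20.7 and 16.4. Gli1 met the count minimum only through the mESC libraries and Smo, at 9 and 10 interactions in mESC NPM, only through the mOPC libraries, so no test is given for them. Gli3 was higher in mOPC (0.71, adjusted p = 0.0266), and this held in 2 of 2 libraries on each side. Of Gli3, Ptch1 and Sufu it alone passed, against 51.2% of 11043 genes. For the same reason as with Gli2, this call is a description and is not independent support. Ptch1 (-0.49, adjusted p = 0.0706) and Sufu (0.61, adjusted p = 0.115) did not pass. Gli3 no longer passed without either mOPC NPM library. With scaling by totals Gli3 was at 0.33 (adjusted p = 0.193), and Ptch1 passed, at -0.87 (0.00942).

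Under 1FA 76.9% of 10949 genes differed between the lines, and no member is called in this contrast. As a description, the fitted log2 differences of mOPC over mESC were 1.49 for Smo, 0.67 for Gli3, 0.07 for Sufu and -0.23 for Ptch1. Sufu was at -0.43 with totals. The NPM difference itself was compared between the lines by an interaction term, which contains the contrast that chose the genes. It is therefore a description as well, with no member called, beside 33.0% of 12213 genes called. The term of Gli1 was 3.38, which rests on the listed 0 of mOPC 1FA and on the prior count, and 1.69 with a prior count of 2. The other terms were -0.42 (Ptch1), -0.12 (Gli3), -0.11 (Smo) and 0.37 (Sufu).

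After actinomycin D, Gli3 fell by 0.62 on the log2 scale (SE 0.19, adjusted p = 0.0275), and 60.8% of 9896 genes passed. The call was lost in 4 of 5 fits without a library. Ptch1 (0.37, adjusted p = 0.133) and Sufu (0.11, 0.536) did not pass. Gli1 (4 and 5 interactions in ActD4) and Smo (2 and 6) met the count minimum only through mESC 1FA, so no test is given for them. With 2% instead of 1% formaldehyde, 0 of 5 members passed by limma, against 0.0858% of 10491 genes. None of the 5 had an unadjusted p under 0.05, and 1264 genes did. With the replicate number as a block 558 genes passed in place of 9, and still none of the 5.

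The reach of an RNA was measured as the share of its interactions with the DNA tag outside the gene's own span. For Gli2 this was 73.7%, 70.0% and 73.8% with 1% formaldehyde and 68.2%, 70.8% and 72.8% with 2%, in mESC. In ActD4 it was 57.9% and 55.0%, below all of these libraries, and in mESC NPM 5.50% and 9.18%, or 2.07% and 2.18% without a bin of ribosomal repeat sequence on chromosome 17 described further on. All 87 interactions of mOPC NPM lay inside the gene. Over all genes the median share was 67.0% in mESC 1FA, 61.4% in 2FA, 40.6% in ActD4, 0.676% in mESC NPM, 58.5% in mOPC 1FA and 0% in mOPC NPM.

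The repressor gene Gli3 reached out less in both lines, at 40.1%, 42.6% and 40.0% in mESC 1FA and 33.6%, 37.2% and 38.2% in mOPC 1FA. These shares sat at percentiles 7.62 and 9.07 of all genes, whereas Gli2 was at 71.9 in mESC 1FA. Gli3 is the longest of the 6 genes (266792 bp) and had 802 listed interactions in mESC 1FA, against 15463 for Gli2. The part of gene length and of the number listed in these shares was not tested. Ptch1 was at 67.4%, 61.9% and 64.9% in mESC 1FA and at 65.7%, 65.6% and 67.1% in mOPC 1FA. Sufu was at 58.7%, 55.7% and 62.5% against 53.6%, 51.6% and 53.7%. The ranges of the lines thus overlapped for Ptch1 and not for Gli3 or Sufu. The median share over all genes was lower in mOPC 1FA as well, at 58.5% against 67.0%. For Smo, 13 of 31, 6 of 20 and 15 of 27 interactions lay outside in the mESC 1FA libraries, and the shares ranged from 51.2% to 70.3% in mOPC 1FA. Gli1 ranged from 67.4% to 75.9% in mESC 1FA.

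**Figure D2:**
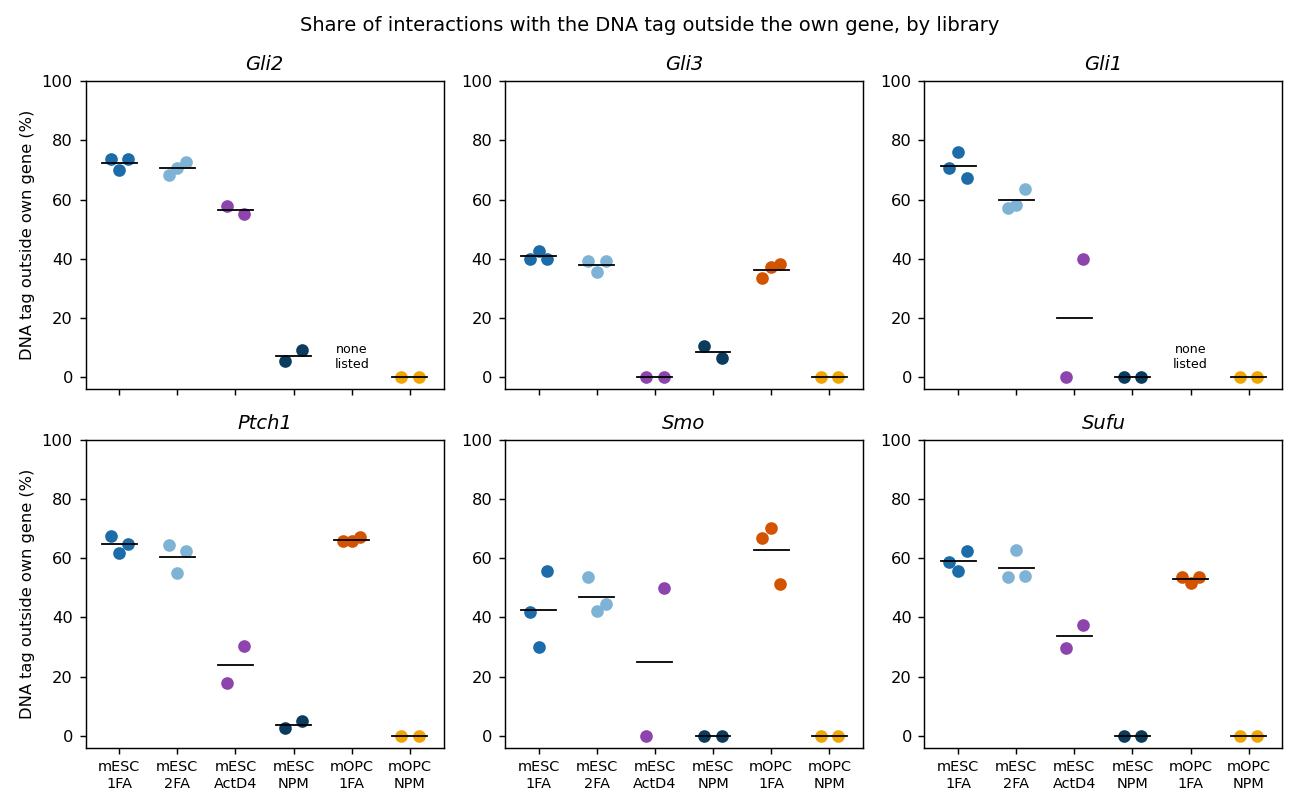
Share of each gene's interactions with the DNA tag outside its own span (vertical axis, 0 to 100%) by group, with a point per library, a bar at the group mean and a mark where none was listed. The shares of Gli2 lie between 68.2% and 73.8% in mESC 1FA and 2FA, at 55.0% and 57.9% in ActD4 and at or under 9.18% in both NPM groups.

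In mESC NPM against 1FA, all 4 members tested had a lower ratio of outside to inside interactions, as did nearly every gene, since 99.9% of 4911 genes were called. On the log2 scale of this ratio Gli2 fell by 5.08 (adjusted p = 3.05e-07), Gli3 by 2.79 (3.40e-05), Ptch1 by 5.39 (6.92e-07) and Sufu by 6.73 (2.53e-07), against a median of -6.21 over all genes. What remained outside the gene was mostly on other chromosomes, at 77 of the 81 interactions of Gli2. With interactions in cis alone, a setting chosen after seeing the data, the values were -9.08, -6.18, -8.40 and -6.73. With only the 25-kb bins listed for a gene in both groups, Gli2 was at -0.61 (adjusted p = 0.167) and Gli3 turned to 0.53 (0.243). Neither passed, while Ptch1 (-4.11) and Sufu (-2.26) did. These bins held 17 and 47 outside interactions of Gli2 in mESC NPM, and 14 and 46 lay in the ribosomal repeat bin. All 6 and 4 of Gli3 lay in it too. In cis Gli2 had 3 and 1 outside interactions in mESC NPM, beside 378 and 584 inside. Shared bins without the ribosomal repeat bin were not tested. In mOPC NPM against 1FA, Gli3 (-7.66), Ptch1 (-8.93), Smo (-7.45) and Sufu (-7.85) all passed, as did 99.8% of 5826 genes, with a median of -7.40. None of the members had an interaction outside its gene in mOPC NPM, nor had Sufu in mESC NPM. In mESC NPM Gli3 and Ptch1 had none outside in cis, and Ptch1 and Sufu none outside in the bins listed in both groups. The sizes of all these values rest on the 0.5 added to each number and are no bound. In both NPM groups the tags were close together, 77.8% to 100% of the interactions of a member in mESC and 86.5% to 100% in mOPC spanning less than 1 kb.

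Between the lines under NPM, 3 of 4 members passed, against 46.3% of 4408 genes. As with capture in these libraries, the calls are a description, since the genes were chosen with results of all groups known. Gli2 was at -2.71 (adjusted p = 0.0148), Gli3 at -5.15 (0.00298) and Ptch1 at -3.45 (0.00441), lower in mOPC, beside a median of -1.52. Sufu was at -1.47 (adjusted p = 0.0558) with no outside interaction in either line. Its value rests on the 0.5, and no direction is read from it. The call of Gli2 was lost in 3 of 4 fits that left out a library. All 10 outside interactions of Gli3 in mESC NPM, all 8 of Ptch1 and 60 of the 81 of Gli2 lay in the ribosomal repeat bin, so the calls of Gli3 and Ptch1 rest wholly on that bin. The mOPC side was at 0 for all 4 and Sufu at 0 in both lines. None of the 4 passed with cis interactions alone, where Gli2 was at 1.28 (adjusted p = 0.270), Gli3 at -1.71 (0.0612), Ptch1 at -0.44 (0.563) and Sufu at -1.47 (0.0991). In cis mESC NPM held 3 and 1 outside interactions of Gli2 and 0 of Gli3, Ptch1 and Sufu. These cis values therefore rest on the 0.5, and no direction is read from them. With bins listed in both groups Gli2 turned to 3.10 (adjusted p = 0.0369), but no outside interaction of Gli2 remained there in either group, so that value rests on the 0.5 alone, and the other 3 did not pass. Under 1FA 55.2% of 5015 genes differed, and the members are again only described. The described values of mOPC over mESC were 1.18 for Smo, 0.09 for Ptch1, -0.28 for Gli3 and -0.35 for Sufu, which turned to 0.31 with bins listed in both groups. The median over all genes was -0.54. In bins listed in both lines Gli3 had 51, 53 and 73 outside interactions in mESC 1FA, beside 154, 132 and 189 inside. In mOPC 1FA it had 50, 51 and 66 outside, beside 154, 145 and 154 inside, so these ratios overlapped.

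After actinomycin D the 4 members tested had a lower ratio, as had 94.8% of 2475 genes called in either direction. Gli2 was at -1.02 (SE 0.12, adjusted p = 3.73e-06), less than the median of -1.76. Gli3 was at -5.02 (adjusted p = 7.83e-09), Ptch1 at -2.55 (1.33e-06) and Sufu at -1.49 (0.000196). None of the 25 and 21 Gli3 interactions of ActD4 lay outside the gene, so the size of its value rests on the 0.5 and is no bound. The share outside was 17.8% and 30.3% for Ptch1 and 29.7% and 37.5% for Sufu. These calls depended on which bins were listed. With only bins listed in both groups Gli2 was at -0.22 (adjusted p = 0.205), Ptch1 at 0.31 (0.577) and Sufu at 0.44 (0.412), none of them passing, and 131 of 2467 genes were called. Gli3 turned to 1.82 (adjusted p = 0.01998), with no outside interaction left in either group, so that value too rests on the 0.5 alone. With 2% formaldehyde 0 of 6 members passed by limma, against 2.00% of 7114 genes. None of them had an unadjusted p under 0.05, the lowest being 0.0658 for Gli1 (-0.75, adjusted p = 0.238). With the block 779 genes passed in place of 142, and still none of the 6.

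In cis the RNA of Gli2 spread far along chromosome 1. In mESC 1FA 28.4% to 32.2% of its interactions were beyond 1 Mb and 8.67% to 9.83% beyond 10 Mb, and the farthest DNA tag lay 64071 kb away. In ActD4 3.47% to 3.48% were beyond 1 Mb, none was beyond 10 Mb and the farthest lay 1770 kb away. The median cis distance fell with it, from 327 to 421 kb in mESC 1FA to 147 to 170 kb in ActD4, and was 0.240 to 0.284 kb in mESC NPM and 0.230 to 0.265 kb in mOPC NPM. Of the cis interactions of Gli2 outside its gene, 5.46% were within 25 kb of it in mESC 1FA, 9.95% at 25 to 100 kb, 13.2% at 100 to 250 kb, 18.3% at 250 to 500 kb and 12.9% at 500 to 1000 kb. A further 19.9% were at 1000 to 2500 kb and 20.3% beyond that. The same classes held 8.85%, 15.0%, 25.7%, 35.9%, 9.93%, 4.59% and 0% in ActD4. More of them lay on the side of the 5′ end than of the 3′ end, at 64.9% to 65.8% in mESC 1FA and 60.3% to 60.9% in ActD4.

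**Figure D3:**
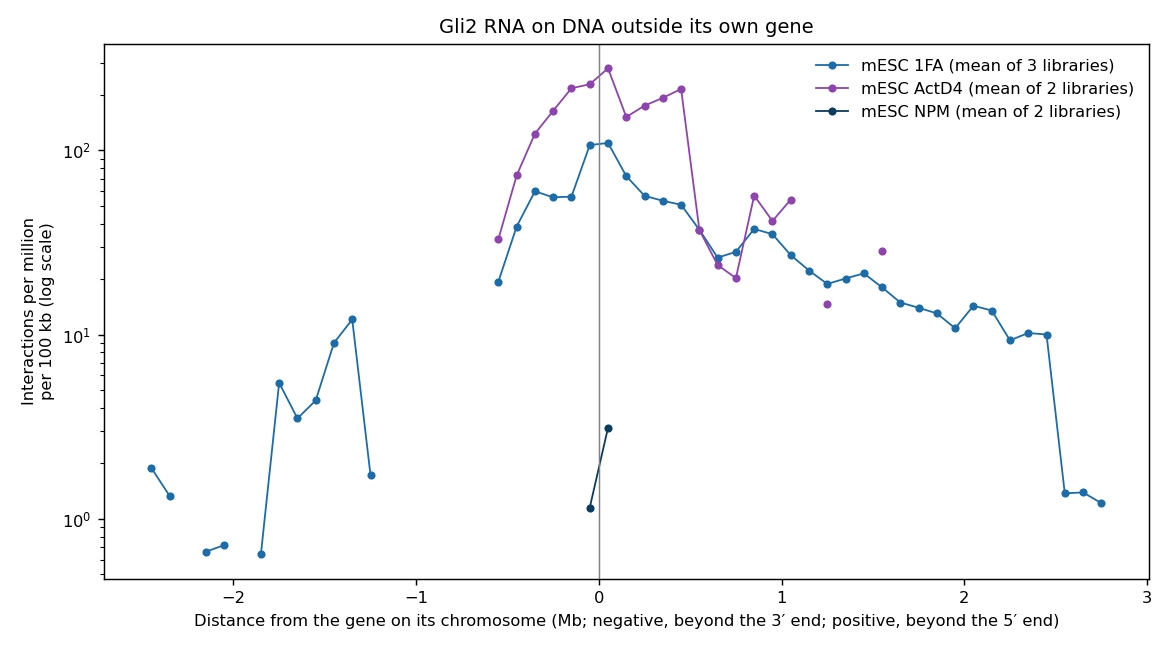
Mean Gli2 CPM in steps of 100 kb (vertical axis, logarithmic) by distance of the DNA from the gene (horizontal axis, in Mb, negative beyond the 3′ end and positive beyond the 5′ end) in mESC 1FA, ActD4 and NPM, with steps at 0 not drawn. The 1FA and ActD4 lines are highest next to the gene, ActD4 has no point beyond 1770 kb and NPM has 1 point on either side of the gene, while most of the 20.3% of outside interactions beyond 2500 kb in 1FA lie farther out than drawn. Only listed bins enter, of which Gli2 had 59 outside the gene in cis in ActD4 and 339 in mESC 1FA.

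The DNA touched by Gli2 was spread over 348 bins in mESC 1FA, 67 in ActD4, 13 in mESC NPM and 6 in mOPC NPM. Of the 11228 interactions outside the gene in mESC 1FA, 5950 (53.0%) fell in no annotated gene. Among genes, Clasp1, which encodes a microtubule plus-end protein, took 993 (8.84%), Ptpn4 395, Epb41l5 320 and Tfcp2l1, a transcription factor of the naive stem cell state, 212. In ActD4 Clasp1 took 198 of 1439 (13.8%) and Tfcp2l1 97. The RNA of Gli2 also met a bin of chromosome 17 (chr17:39825001-39850000), whose genes Gm26917, CT010467.1, Gm42418 and AY036118 lie in ribosomal RNA repeat sequence. That bin took 17 Gli2 interactions in mESC 1FA, 22 in mESC 2FA and 60 in mESC NPM, 10 of Gli3 in mESC 1FA and 10 in mESC NPM, and 8 of Ptch1 in mESC NPM. What part misplaced ribosomal tags have in it was not tested.

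Gli3 was listed closer, with 5.71% to 7.78% of its interactions beyond 1 Mb in mESC 1FA and 6.06% to 7.33% in mOPC 1FA. Its outside interactions lay on either side of the gene in mESC 1FA, with 40.4% to 57.7% on the 5′ side, and mostly on the 5′ side in mOPC 1FA, with 80.2% to 86.3%. At 100 to 250 kb 13 of 60 were on the 5′ side in mESC 1FA and 46 of 46 in mOPC 1FA. Of all its outside interactions, the non-coding gene B230303A05Rik took 22, 25 and 19 in the mESC 1FA libraries and 0, 1 and 2 in mOPC 1FA. Psma2, which encodes a proteasome subunit, took 5, 5 and 8 against 18, 17 and 11. The libraries of the lines did not overlap in either, and these values, from the contrast that chose the genes, were not tested.

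Ptch1 RNA met mostly its neighbours, with Fancc, a DNA repair gene, at 221 of 948 outside interactions in mESC 1FA and 101 of 453 in mOPC 1FA, and 2010111I01Rik at 112 and 86. Its median cis distance was 65.6 to 97.0 kb in mESC 1FA and 116 to 173 kb in mOPC 1FA. For Sufu 28.0% of the outside interactions in mOPC 1FA were within 25 kb and 48.6% at 25 to 100 kb, against 15.4% and 28.2% in mESC 1FA. Beyond 1000 kb it was the other way, with 3.10% in mOPC 1FA and none in mESC 1FA. Gbf1, a factor of Golgi transport, took 79 of 559 in mESC 1FA and 14 of 296 in mOPC 1FA, and Arl3 33 and 34. Smo met Ahcyl2 in 6 of 34 and in 32 of 77. Gli1 met Arhgap9, which overlaps it, in 23 of 118.

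Where the RNA tags lay within the gene also differed between the groups. For Gli2 the step of 50 to 60 kb from the 5′ end, which holds both stretches printed above, took 11.02% of tags in mESC 1FA, 16.0% in ActD4, 9.78% in mESC NPM and 4.60% (4 tags) in mOPC NPM. Coding sequence took 2.59% of Gli2 tags in mESC 1FA and 5.90% in ActD4. The last 25% of the length of the gene took 14.8% of mESC 1FA tags, 14.9% of mESC NPM tags and a mean of 37.6% over the mOPC NPM libraries, where it rested on 34 tags. All mOPC NPM tags of Gli2 were joined to 6 listed bins of the gene, whereas 10 bins of the gene were listed in mESC NPM. In the mOPC NPM libraries 96.4% and 100% of tags lay within 1 kb of their DNA tag, and none lay in the first 30 kb. What part the unlisted bins have in the mOPC NPM shares was not tested. For Ptch1 the share of tags in coding sequence was 7.17% under 1FA and 19.3% under NPM in mESC, and stood at 7.03% and 18.9% in mOPC. The mOPC shares of Smo rested on few tags, at 1 of 45, 0 of 37 and 2 of 41 under 1FA and 13 of 52 and 6 of 51 under NPM. Gli1, the shortest of the genes, had 38.8% of its mESC 1FA tags in coding sequence. These shares were not tested.

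**Figure D4:**
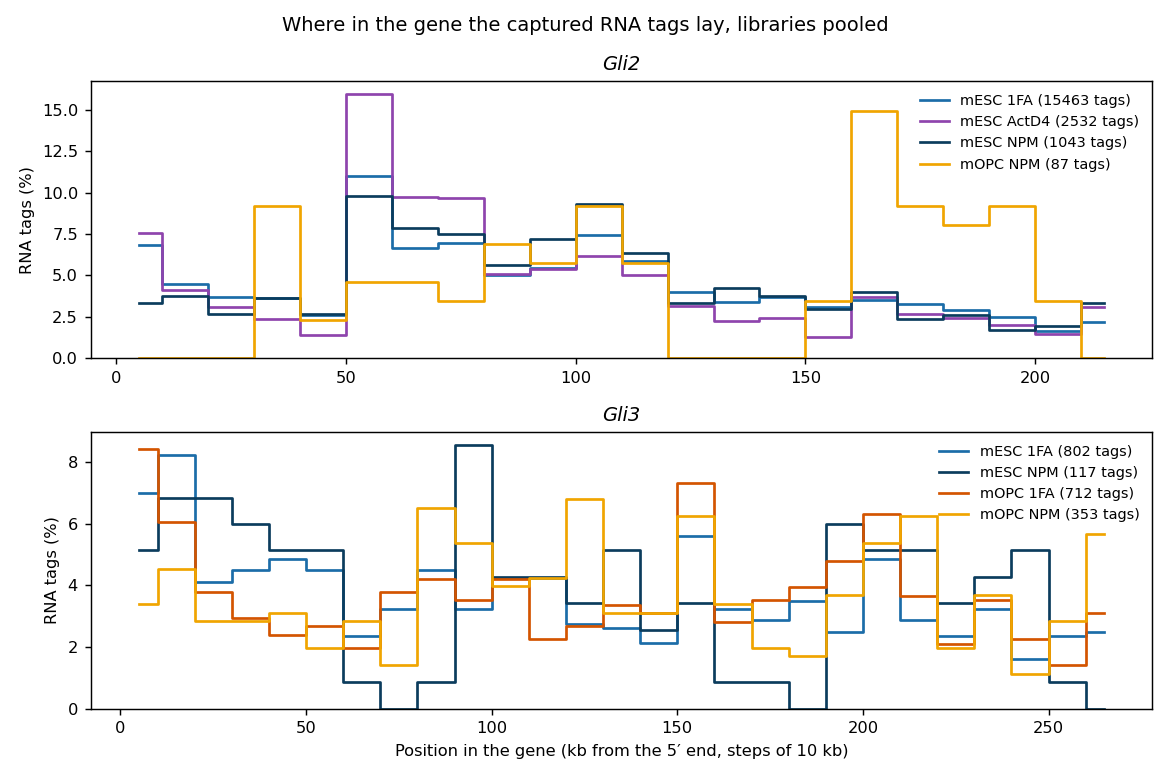
Percent of RNA tags in steps of 10 kb from the 5′ end of Gli2 and Gli3 (horizontal axis, kb) by group, with the libraries of a group pooled and the number of tags in the legend. The peak of Gli2 at 50 to 60 kb holds 11.02% of tags in mESC 1FA and 16.0% in ActD4. The Gli2 line of mOPC NPM rests on 87 tags joined to 6 listed bins of the gene, against 10 bins of the gene in mESC NPM.

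The DNA of the 6 genes was also met by RNA of other genes. At Gli2 such interactions stood at 83.2 ± 2.34 CPM (SD, n = 3) in mESC 1FA and 27.7 ± 2.19 (n = 3) in mOPC 1FA, so the Gli2 locus was listed in mOPC although its own RNA was not. In mESC 1FA they came mainly from Tfcp2l1 (258) and Clasp1 (251), followed by Ptpn4 (83) and Epb41l5 (62). In mOPC 1FA they came from Clasp1 (163) and Ptpn4 (12). No RNA of another gene was listed there in either NPM group. At Sufu the level was 99.9 ± 2.11 against 82.3 ± 13.2, at Ptch1 43.5 ± 3.64 against 30.9 ± 4.23, at Smo 26.0 ± 5.86 against 27.8 ± 2.13, at Gli1 20.04 ± 4.14 against 21.3 ± 2.89 and at Gli3 5.86 ± 1.70 against 8.70 ± 0.272. Malat1, an abundant nuclear non-coding RNA, gave 172 interactions at Sufu in mOPC 1FA, whereas Cnnm2 (108), Gbf1 (102) and Trim8 (96) led there in mESC 1FA. These levels belong to the contrast that chose the genes and are given as a description.

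**Figure D5:**
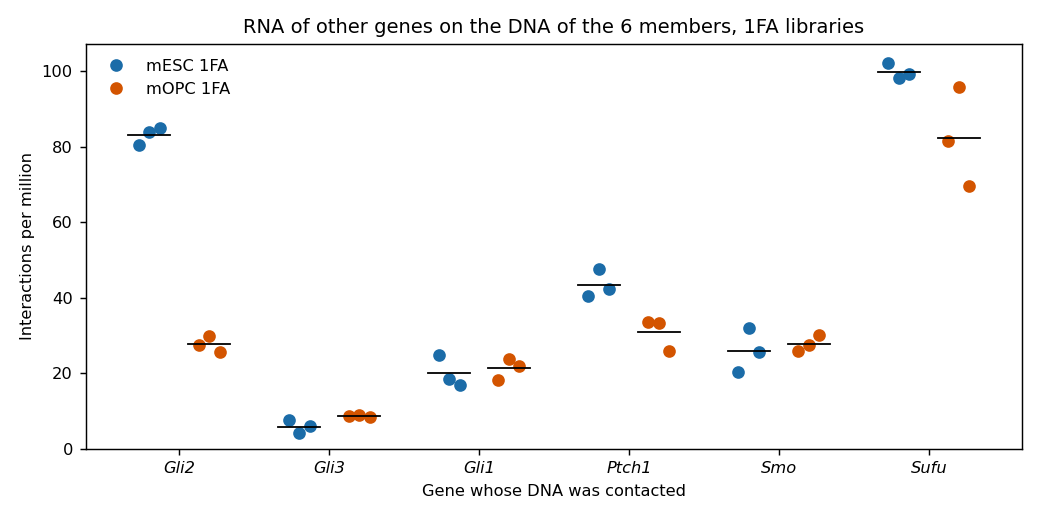
Interactions of other genes' RNA with the DNA of each Hedgehog gene, in CPM of listed interactions (vertical axis), in mESC 1FA and mOPC 1FA, with a point per library and a bar at the mean. At Gli2 the means are 83.2 and 27.7, and at Gli1 and Smo the means differ by less than the SD of mESC 1FA.

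Of 71 further genes of the pathway, 50 were tested in mESC NPM against 1FA, where 9 were higher and 14 lower, near the 21.8% and 27.7% of all genes, with a median of 0.13 on the log2 scale against -0.01 over all genes. In mOPC NPM against 1FA 15 were higher and 19 lower of 54, beside 28.9% and 26.6% of all genes, with a median of 0.29 against 0.17. With scaling by totals these became 28 higher and 4 lower (median 0.66 against 0.51) and 34 higher and 8 lower (median 1.08 against 0.95), beside 4203 higher and 1326 lower of 10096 genes and 6157 and 757 of 10419, so the counts are relative to the bulk of the genes. Genes can meet the count minimum through 1 group alone, so the counts are a description. The genes for turnover of Gli proteins had medians below that of all genes under either scaling. Beside those shares of all genes they gave 6 lower and 1 higher of 9 in mESC (median -0.57, and 3 lower and 3 higher at -0.04 with totals) and 7 lower and 1 higher of 9 in mOPC (median -0.86, and 3 lower and 2 higher at -0.07). Among them Btrc and Fbxw11, the substrate receptors of the ubiquitin ligase that acts on phosphorylated Gli, were at -1.31 and -1.21 in mESC and -1.25 and -1.32 in mOPC, and passed as lower with totals too (-0.78 and -0.68, -0.46 and -0.52).

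Of the kinases, 5 of 10 were lower and 1 higher in mESC, but 5 were higher and 0 lower with totals, and 5 of 12 were lower and 2 higher in mOPC, against 3 lower and 6 higher with totals. Gsk3b was at -0.90 and -1.38 in the lines, Csnk1d at -0.97 in mESC and Csnk1a1 at -1.40 in mOPC. With totals Gsk3b (-0.38, adjusted p = 0.0560) and Csnk1d (-0.44, 0.107) no longer passed in mESC, while Gsk3b (-0.58) and Csnk1a1 (-0.60) did in mOPC. The cilium genes gave 4 higher and 1 lower of 13 in mESC (Arl13b 1.04, Iqce -0.72) and 4 higher and 3 lower of 15 in mOPC (Kif3a 1.42, Evc -1.20). With totals they gave 10 higher and 0 lower in mESC, where Iqce was at -0.19 (adjusted p = 0.561), and 12 higher and 1 lower in mOPC, where Evc was at -0.40. Receptors and co-receptors gave 1 higher and 0 lower of 7 in mESC and 2 higher and 1 lower of 7 in mOPC, and 4 higher and 0 lower and 5 higher and 1 lower with totals. Lrp2, an endocytic receptor, was higher in both, at 1.31 and 1.04, and Gpc6, a cell surface proteoglycan, was at -1.32 in mOPC (-0.53 with totals). Targets and Gli relatives gave 1 higher and 1 lower of 6 in mESC (Glis2 -1.06, lower) and 2 higher and 3 lower of 7 in mOPC (Ccnd2 1.33, Glis3 -0.98). With totals they gave 4 higher and 1 lower in mESC (Glis2 -0.53) and 5 higher and 0 lower in mOPC, where Glis3 was at -0.19 (adjusted p = 0.217).

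Ligands were hardly listed. Shh was listed in mOPC NPM alone, with 4 and 5 interactions, Dhh at 2 to 5 in mOPC 1FA and 5 to 10 in mOPC NPM, and Ihh nowhere. Ligand release genes gave 1 higher and 1 lower of 5 in mESC NPM (Disp1 -0.47, but 0.06 with totals). In mOPC they met the count minimum only through the NPM libraries, Hhat with 21 to 34 interactions and Disp1 with 21 to 36 against 0 in mOPC 1FA, so their 4 calls of higher carry no weight. The decoy receptor Hhip was listed at 2 to 3 interactions in mESC 1FA against 68 to 96 in mOPC 1FA. Between the lines under NPM 23 of 60 pathway genes were higher and 11 lower in mOPC, beside 30.3% and 20.9% of all genes, with a median of 0.35 against 0.20, and 17 were higher and 17 lower with totals. Ccnd1, a cell cycle target of the pathway, had 119 and 368 interactions against 7 and 16 and met the count minimum only through mOPC, so no test is given. Dync2h1, the motor of retrograde transport in cilia, was at 1.92 and Prkar1a, a regulatory subunit of protein kinase A, at 2.17. Disp1, which releases the ligands, was at -1.89 and Csnk1a1 at -1.31. Hhip (57 to 92), Gpr161 (45 to 73) and Bcl2 (326 to 337) were listed in mOPC NPM and at 0 in mESC NPM, and Gpc3 (156 to 241) the other way round.

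After actinomycin D 9 pathway genes were higher and 26 lower of 50 (10 and 22 with totals), beside 19.4% and 41.4% of all genes, with a median of -0.45 against -0.31. Gsk3a was at 1.15 and Csnk1d at 0.99, while Cul3 (-1.14) was lower. Gpc6 (4 to 11 interactions in ActD4, 640 to 1218 in mESC 1FA), Glis3 (3 to 4, 163 to 202), Spopl (2 to 5, 125 to 216), Ift88 (1 to 6, 56 to 86) and Lrp2 (8 to 23, 178 to 484) met the count minimum only through mESC 1FA, so no test is given for them. Hhat, Arl13b and Glis1 were listed at 0 in ActD4. Outside reach was lower in 33 of 33 pathway genes in mESC NPM and 37 of 37 in mOPC NPM, which are near the shares of all genes. It was lower in mOPC than in mESC in 13 of 32 under NPM, beside 45.1% of all genes, and lower after actinomycin D in 15 of 15, beside 94.7% of all genes.

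Over the 15 libraries the genes whose log2 level was most like that of Gli2, among 5207 genes with at least 100 interactions per library in any group, were B4galnt3 (Pearson's r = 0.998), Cacna1a (0.998) and Hsf2bp (0.998). They lie on other chromosomes, and each was listed at 0 in mOPC 1FA. Cacna1a, a calcium channel subunit, averaged 2443 interactions in mESC 1FA and 18.5 in mOPC NPM. The genes most like Gli3 were Hook3 (0.904), Adam22 (0.903) and Spast (0.884). The points are libraries that share a cell line, a protocol and a list of pairs, so these values are a description.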

How the data were processed

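RADICL-seq libraries of 2 mouse lines were analysed from the lists of significant interactions. The authors extracted and deduplicated the RNA and DNA tags, aligned them to mm10 with BWA (0.7.15-r1140, per the labels), assigned RNA tags to genes by strand and tested each pair of a gene and a 25-kb bin. The adjusted p-values that were deposited come from a one-sided binomial test on the pooled replicates of a condition, so replicates share a list. Lines of a library with the same gene, RNA tag position and strand, DNA tag position and bin were merged to 1 interaction. Interactions were counted per gene and library (the 32 repository entries are 15 libraries), and 99.9% of identifiers matched GENCODE M21. Genes with at least 10 interactions in 2 libraries and 15 in all were fitted with limma 3.58.1 (R 4.3.3) on log2 CPM with TMM factors and a prior count of 0.5. For reach, log2 of outside over inside interactions, each plus 0.5, was fitted for genes with at least 20 interactions in every library. Tests were two-sided, p-values were adjusted by Benjamini-Hochberg over all genes, and calls used an adjusted p under 0.05. The scripts were tested on simulated data. Where nothing ties libraries to separate cultures beyond passage, p-values measure the spread between these libraries.

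Members, pathway lists and marker lists were chosen with earlier results of these data known. Beside the members the text names, per list and comparison, the 2 largest called differences with a mean of at least 50 interactions, the genes most like Gli2 and Gli3, and the leading DNA targets. The file total is not a depth, so no detection limit is given. Same-numbered libraries of mESC 2FA and 1FA deviated together over genes (r = 0.442, 0.273 and 0.447), but the labels do not say what a number shares. The main fits were unpaired, and pairing entered only as the replicate block among the alternatives. Alternatives were scaling by totals, no count minimum, a prior count of 2, voom weights, pairs counted once, interactions beyond 1 kb or in trans, a minimum of 50, tags beyond 10 kb, only the bins listed for a gene in both groups, a replicate block, each library left out and, added after seeing the data, cis interactions alone.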

Additional observations from a re-analysis of the deposited data

Results flagged for a closer look

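In listed levels Gli2 was lower under NPM in mESC, at 1833 to 2121 CPM in 1FA and 920 to 1056 in NPM, and was listed in mOPC under NPM alone, at a mean of 35.0 CPM against a listed 0 in 1FA. A gene listed at 0 may still have been captured and the 1FA values chose the gene, so no direction is read for mOPC, and whether the NPM difference from 1FA differs between the lines was not tested.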

How the results depend on the processing

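Of 733 values of single genes under an alternative, 642 kept their direction and side of the threshold, 26 newly passed, 29 no longer passed and 36 changed direction; where no reason is given the cause was not tested. Over all genes, totals gave 4203 higher and 1326 lower of 10096 in mESC NPM and 6157 and 757 of 10419 in mOPC NPM. Without the count minimum 8904 of 14681 and 9060 of 15041 were called there. Between the NPM lines 671 of 674 were called with pairs counted once and 1177 of 2852 beyond 1 kb or in trans. Beside these, no change in a count is read as a result about the members. Numbers of members called in capture moved as follows. Members given no test above are among those counted here. They are Smo in mESC NPM against 1FA, Gli2 between the NPM lines, and Gli1 and Smo after actinomycin D. In mESC NPM against 1FA, 1 became 3 with totals, 3 without the count minimum, 3 with each pair counted once and 2 with the replicate block, and was 1 to 2 with a library left out. In mOPC NPM against 1FA it was 3, then 2 with totals (Gli3, in the other direction, and Smo), 2 beyond 1 kb or in trans and 4 without the count minimum, and 2 to 3 with a library left out. Between the NPM lines 4, Gli1 and Smo included, became 2 with pairs counted once and 1 beyond 1 kb or in trans, where fewer members were tested, and was 2 to 4 with a library left out. After actinomycin D 1 became 2 with pairs counted once and 0 with the block, and was 0 to 3 with a library left out. With 2% formaldehyde 0 became 3 with pairs counted once, beside 4421 of 5790 genes called. The interaction, from which nothing is read, went from 1 to 2 with totals and to 2 with pairs counted once, and was 1 to 2 with a library left out. For reach, shared bins are those listed for a gene in both groups. Here 4 became 2 with shared bins in mESC NPM (4 to 5 with a library left out), 3 became 0 in cis and 1 with shared bins between the NPM lines (2 to 3), 1 became 0 with a minimum of 50, 2 beyond 10 kb and 0 with shared bins between the 1FA lines (0 to 1), from which nothing is read, 4 became 2 with a minimum of 50 and 1 with shared bins after actinomycin D (4 throughout), and 0 became 1 beyond 10 kb with 2% formaldehyde. mOPC NPM reach gave 4, and 3 with a minimum of 50 and with shared bins, where Smo was not tested.

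Direction changed with totals for Gli3 (0.18) and Ptch1 (0.036) in mESC NPM, Gli3 (0.35) in mOPC NPM, Sufu (-0.43) between the 1FA lines, and Gli3 (0.17) and Smo (0.19) in the interaction. With pairs counted once, where replicates sharing a list barely vary, it changed for Gli3 in mESC NPM (1.09) and mOPC NPM (0.86), Ptch1 (0.60) and Sufu (-0.13) between the 1FA lines, Gli3 (0.060) and Ptch1 (-0.0195) after actinomycin D, and Gli2 (0.066) with 2% formaldehyde. Without the count minimum it changed for Sufu between the 1FA lines (-0.00071) and Smo after actinomycin D (-0.056), and beyond 1 kb or in trans for Smo in mESC NPM (-2.52). With shared bins it changed in reach for Gli3 in mESC NPM (0.53), Gli2 between the NPM lines (3.10) and Sufu between the 1FA lines (0.31). It also changed for Gli3 (1.82), Ptch1 (0.31) and Sufu (0.44) after actinomycin D, and for Sufu with 2% formaldehyde (0.081). In cis it changed for Gli2 between the NPM lines (1.28). Both values of Gli2 and the 1.82 of Gli3 rest on the 0.5, so no direction is read from them. With a library left out, ranges crossed 0 for Smo after actinomycin D (-1.11 to 1.19), Gli2 (-0.091 to 0.018) and Ptch1 (-0.12 to 0.26) with 2% formaldehyde, Gli3 (-0.24 to 0.027) and Smo (-0.27 to 0.028) in the interaction, and in reach Ptch1 between the 1FA lines (-0.0028 to 0.17) and Smo with 2% formaldehyde (-0.11 to 0.63). The replicate block changed no member call in mESC 2FA against 1FA. The depth behind the listed totals is unknown. Over all genes, the numbers called in capture without the count minimum were 8904 against 4993 (mESC NPM), 9060 against 5780 (mOPC NPM), 9246 against 5658 (NPM lines), 10283 against 6014 (actinomycin D), 2081 against 9 (2% formaldehyde) and 8047 against 4035 (interaction). Fewer genes were tested, and fewer called, between the NPM lines with pairs counted once (671) and beyond 1 kb or in trans (1177), and without an mOPC NPM library in mOPC NPM (3160 to 3702), between the NPM lines (3490 to 3576) and in the interaction (2620 without replicate 1). With 2% formaldehyde 20 were called with voom weights, 4421 with pairs counted once and 0 to 3 with a library left out. For reach, a minimum of 50 left 2223 calls of 4905 in mESC NPM, 3817 of 5814 in mOPC NPM, 989 of 2346 after actinomycin D and 61 of 142 with 2% formaldehyde. Shared bins left 221 of 2039 between the NPM lines (369 in cis), 223 of 2769 between the 1FA lines, 131 of 2346 after actinomycin D and 0 of 142 with 2% formaldehyde, where 729 passed beyond 10 kb and 35 to 1509 with a library left out.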
